A study of Mus musculus with 10 samples.

Results

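The nuclear genes of oxidative phosphorylation were followed through the estradiol (E2) withdrawal series of ER-Hoxa9-Lys-GFP cells. This line of mouse myeloid progenitors, strain C57BL/6, grows in culture. Members were the protein-coding genes of GENCODE M21 whose symbols begin with Nduf followed by a, b, c, s or v, with Uqcr, with Cox followed by a digit from 4 to 8, or with Atp5, together with Sdha, Sdhb, Sdhc and Sdhd. The rule matched 94 genes and 93 of them were listed, out of 26227 listed genes. Cox8c was not analysed here. By name the rule also took in the 8 complex I assembly factors Ndufaf1 to Ndufaf8 and Atp5s, none of which is a subunit, and it passed over subunits with other names such as Cyc1. A pair of the genes carry the symbol Atp5o, the gene itself and a read-through gene that shares its exons, so these are not independent of each other.

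In these cells Hoxa9 is joined to the hormone-binding domain of the estrogen receptor, so that the fusion is active only while E2 is in the medium, and Lys-GFP stands for a green fluorescent reporter at the lysozyme gene. The series has 10 libraries in 5 groups of 2. The untreated group kept E2. The 24 h group spent 24 h without E2 and then 96 h with it restored, the 40 h group 40 h without and 80 h with it, and the 72 h group 72 h without and 48 h with it. The 120 h group had E2 withdrawn for 120 h with none given back. All groups carry the fusion and the reporter. Whether the line is 1 clone, and whether the 2 libraries of a group came from separate cultures, is not given in the sources used here, so each p-value speaks only to the scatter among these libraries, which could be technical.

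As background, oxidative phosphorylation runs on 5 enzyme complexes of the inner mitochondrial membrane. Complexes I and II pass electrons from NADH and succinate to ubiquinone, complex III passes them to cytochrome c, complex IV hands them to oxygen, and complex V, the ATP synthase, uses the proton gradient to make ATP. Complexes I, III, IV and V hold products of both the nuclear and the mitochondrial genome, whereas complex II is nuclear-encoded throughout. Several complex IV subunits exist as paired isoforms, 1 found in most tissues and another known from heart and skeletal muscle. Mature neutrophils are known for few mitochondria and for drawing most of their ATP from glycolysis.

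The promoter stretches below show members that the results turn on, each the 170 bases just before the RefSeq transcription start on the GRCm38.p6 build, written on the gene's own strand. Ndufa4, Cox7a1 and Cox7a2l were chosen because their levels set them apart, and Ndufaf4, Cox6a1 and Atp5g2 because they hold core letters of the site of NRF1, a factor known for driving respiratory genes. Capitals mark those letters, GCGCATGCG on either strand, and in these 3 genes the matches on the 2 strands overlap.
Ndufa4 (chr6:11907451-11907620, minus strand): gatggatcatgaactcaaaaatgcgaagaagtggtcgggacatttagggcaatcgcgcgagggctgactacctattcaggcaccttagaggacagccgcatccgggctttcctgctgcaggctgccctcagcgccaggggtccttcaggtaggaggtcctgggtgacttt
Cox7a1 (chr7:30184001-30184170, plus strand): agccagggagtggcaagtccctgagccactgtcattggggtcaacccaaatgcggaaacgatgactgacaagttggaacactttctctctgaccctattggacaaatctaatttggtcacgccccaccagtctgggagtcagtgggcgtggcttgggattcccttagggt
Cox7a2l (chr17:83514334-83514503, minus strand): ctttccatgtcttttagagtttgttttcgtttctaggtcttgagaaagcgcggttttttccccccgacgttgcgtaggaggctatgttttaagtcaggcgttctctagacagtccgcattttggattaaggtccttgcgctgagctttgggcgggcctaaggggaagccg
Ndufaf4 (chr4:24897913-24898082, plus strand): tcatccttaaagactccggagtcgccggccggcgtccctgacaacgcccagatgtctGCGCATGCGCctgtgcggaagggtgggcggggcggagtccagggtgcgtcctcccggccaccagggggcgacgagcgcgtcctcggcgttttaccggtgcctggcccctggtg
Cox6a1 (chr5:115348959-115349128, minus strand): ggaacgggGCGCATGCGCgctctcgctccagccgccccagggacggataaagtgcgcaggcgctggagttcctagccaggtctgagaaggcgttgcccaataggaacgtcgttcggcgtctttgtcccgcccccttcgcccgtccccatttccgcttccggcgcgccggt
Atp5g2 (chr15:102671048-102671217, minus strand): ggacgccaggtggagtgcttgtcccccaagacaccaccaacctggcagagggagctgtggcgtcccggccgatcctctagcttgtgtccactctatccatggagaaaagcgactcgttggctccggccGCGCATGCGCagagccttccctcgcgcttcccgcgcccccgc
The capitals begin 113 bases before the start in Ndufaf4, 162 in Cox6a1 and 42 in Atp5g2.

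The RefSeq table held a promoter window of 300 bases, 250 before and 50 after the start, for 76 of the 93 members, and 5 of these had more than 1 listed start. Cox6a2, Ndufa4l2 and Cox4i1 are among those without an entry. On either strand the NRF1 letters stood in 10 members (13.2%), namely Atp5g2, Atp5k, Atp5l, Cox6a1, Ndufa8, Ndufa11, Ndufaf4, Ndufaf5, Uqcr11 and Uqcrc1, against 1.95% of the 27025 genes of the table and 4.45% of the 8677 tested genes in it. The letters AAGATGGCG of the site of YY1, a zinc finger factor, stood in 8 members (10.5%), Ndufs4 and Ndufc1 among them, against 1.64% and 3.99%. The letters CCGGAAGT of ETS factors such as GABP stood in 5 members (6.58%), between the 4.31% of all genes and the 10.1% of tested genes. The E-box letters CACGTG were in 6 members (7.89%, against 8.09% and 12.2%), and TATAAA was in 7 members (9.21%, against 15.7% and 8.33%). A match is a description of letters in this window and no more.

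Levels are RPKM, reads per length of the transcript and per depth of the library. Being per length, a comparison of levels between genes also rests on the transcript chosen for each. Of the 93 members, 89 reached 1 RPKM in at least 2 libraries and were tested, and every one of the 89 did so within the untreated group alone. The other 4, Cox4i2, Cox6b2, Cox7b2 and Cox8b, are tissue-restricted isoforms of complex IV subunits, and none was above 0.067 RPKM in any library. Other such isoforms, Cox6a2 and Cox7a1, were among the tested members. Untreated means of the tested members ran from 4.46 RPKM for Ndufaf4 to 897 RPKM for Atp5b, with a median of 98.0 RPKM, whereas the median over all 13004 tested genes was 9.42 RPKM. Member transcripts were short, with a median of 875 bases (366 to 4715), against 2486 bases over all tested genes. Members lay on 19 chromosomes.

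The markers of the cell types were read first. The 8 mature neutrophil markers summed to 5.97 and 5.16 RPKM in the untreated libraries, 10.1 and 9.01 RPKM in the 24 h, 20.7 and 18.5 RPKM in the 40 h, 396 and 647 RPKM in the 72 h and 20928 and 20542 RPKM in the 120 h libraries. Of the 8, 6 were under 1 RPKM in both untreated libraries, so that they were tested only because they were high elsewhere, and no count of calls is given for such lists. Of 8 progenitor markers, 4 fell and 1 rose in the 72 h group and 7 fell in the 120 h group. Of all tested genes 22.3% fell and 21.6% rose in the 72 h group, and 52.7% fell in the 120 h group. The 8 progenitor markers summed to 3892 and 4289 RPKM in untreated, 6413 and 6132 RPKM in 72 h and 1126 and 488 RPKM in 120 h libraries. The 8 monocyte and macrophage markers summed to 336 and 353 RPKM in untreated cells, 1009 and 1072 RPKM at 72 h and 1673 and 1590 RPKM at 120 h. The 8 eosinophil, basophil and mast cell markers summed to 186 and 212 RPKM in untreated cells, 1537 and 1357 RPKM at 72 h and 569 and 354 RPKM at 120 h. Neither of these 2 lists rose in every tested marker. Among 7 tested monocyte and macrophage markers the median log2 fold change against untreated cells was 2.75 at 72 h and 6.46 at 120 h. The lowest was -1.41 and -1.65. Among 6 tested eosinophil, basophil and mast cell markers the medians were 1.52 and 1.32, and the lowest values -2.04 and -4.80. Ly6c2, Cd14, Epx, Ear2 and Ms4a2 did not reach 1 RPKM in both untreated libraries, so these medians are descriptions. The 9 erythroid and megakaryocyte markers summed to 6.92 to 19.7 RPKM and the 8 lymphoid markers to 3.10 to 19.2 RPKM in all libraries, with 7 of 9 and 6 or 7 of 8 under 1 RPKM. The part of these shifts in the member values below was not tested, and in bulk RNA fewer cells of a type and less RNA per cell cannot be told apart.

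Withdrawal of E2 for 120 h left nearly all nuclear oxidative phosphorylation genes at lower levels. Against untreated cells 85 of the 89 tested members fell, 1 rose (Ndufa4l2) and 3 were not called (limma on log2(RPKM + 1), Benjamini-Hochberg adjusted p under 0.05 over 13004 genes). Among all tested genes 52.7% were called lower and 27.5% higher in the same comparison. The median log2 fold change of the members was -1.14, with the middle of them between -1.36 and -0.88 (lower and upper quartile), while the median of all tested genes was -0.36, with quartiles of -1.01 and 0.40. Of the 89 members, 83 lay below that all-gene median, and 61 fell at least 2-fold. Both 120 h libraries were below all 8 other libraries for 79 members, and the 120 h mean was the lowest of the 5 group means for 87. The matching shares of all tested genes were not worked out for the counts of 79 and 87, which therefore describe the members only. For the 2-fold fall, a log2 fold change of -1 or below, the lower quartile of all tested genes (-1.01) lay next to the cutoff. The member median of -1.14 lay past it. After scaling by the median of ratios, which put the all-gene median at -0.00, 74 members were called lower against 38.6% of all genes and the member median was -0.71. On that scaling 50.5% of calls over all genes were higher, on quantile normalization 41.7% and on RPKM as deposited 34.3%.

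**Figure D1:**
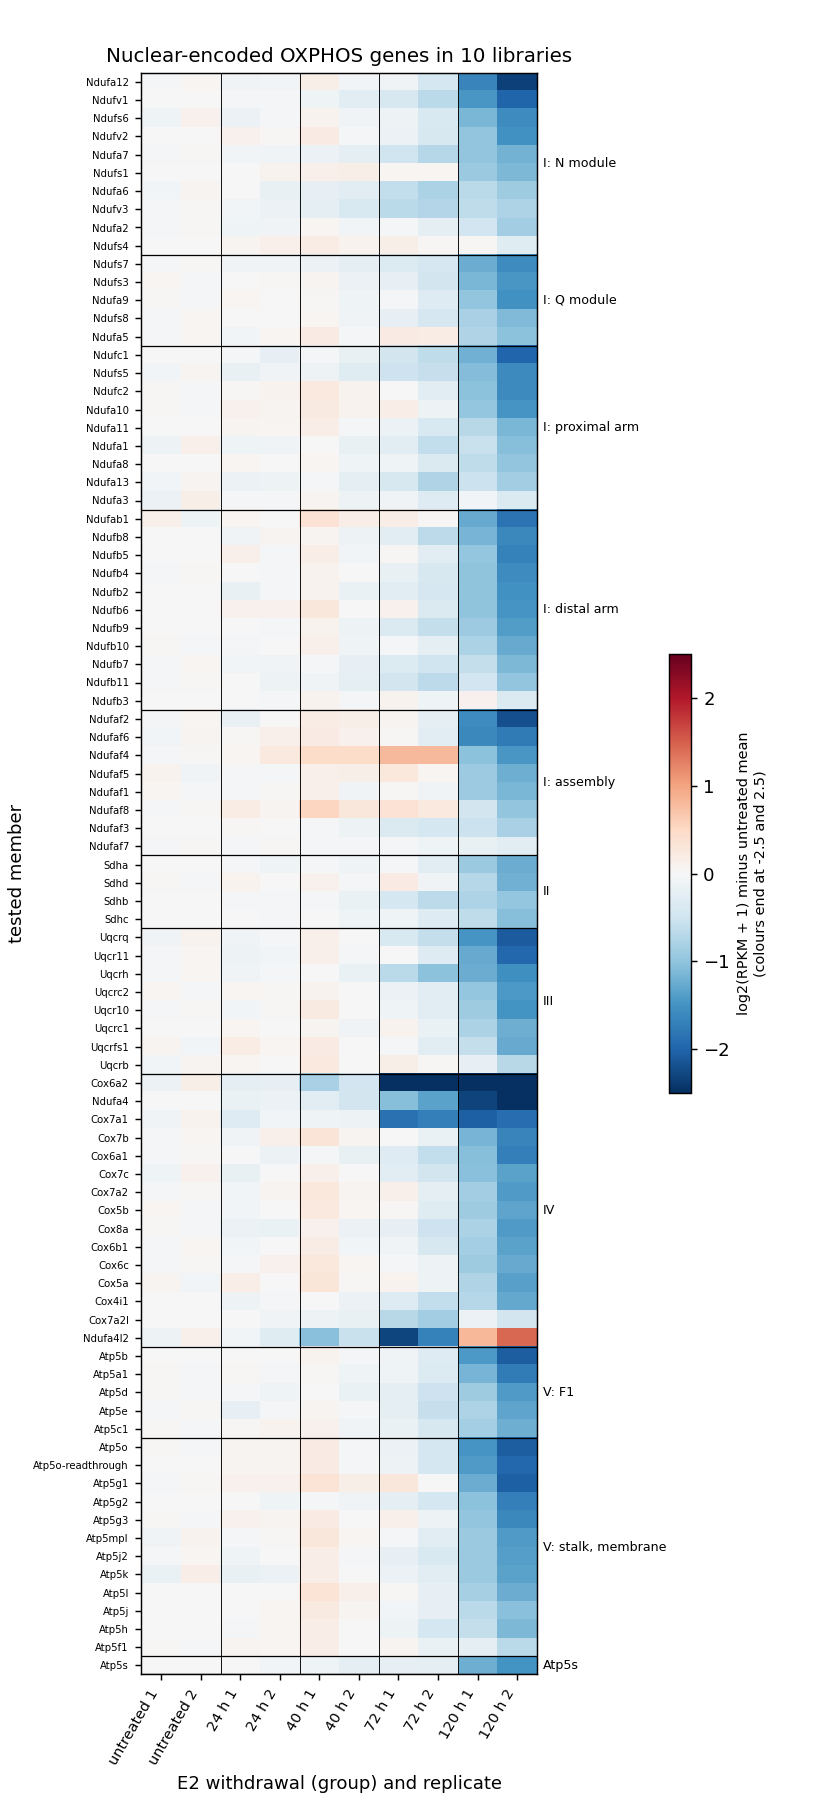
Each row is 1 tested member (1 member is not drawn), grouped by complex and ordered within it by the 120 h change, and each column is 1 library; colour gives log2(RPKM + 1) minus the mean of the untreated libraries. The 120 h columns are blue for nearly every row, with Ndufa4l2 red, and the 72 h columns are darkest for Cox6a2, Cox7a1, Ndufa4l2 and Ndufa4.

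**Figure D2:**
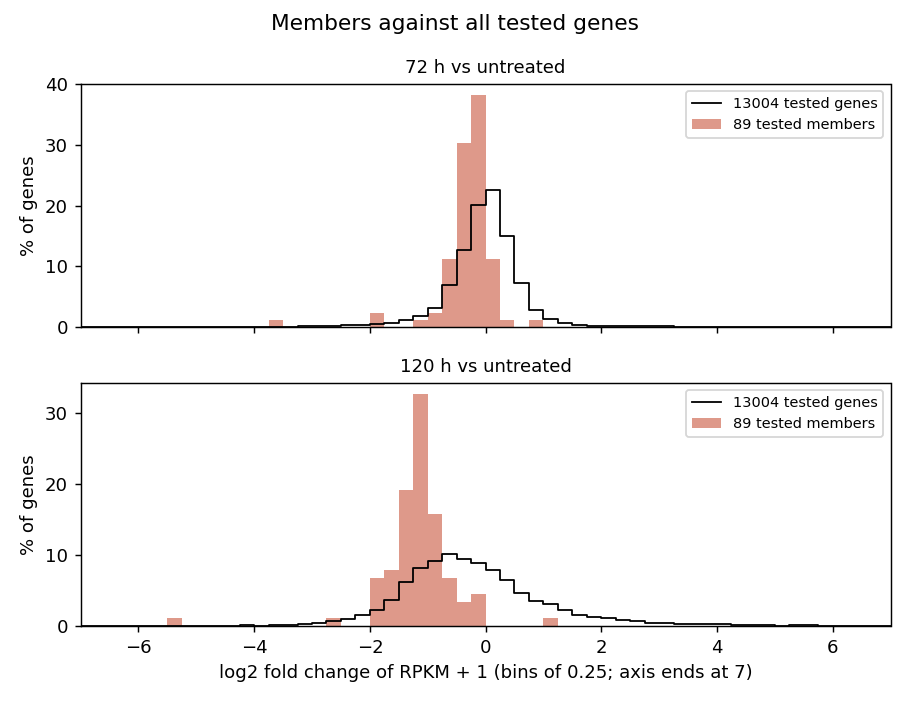
The percent of genes in bins of 0.25 log2 fold change is drawn for the 89 tested members (bars) and for the 13004 tested genes (line), 72 h group above and 120 h group below, each against untreated cells. Members gather in a narrower range than all genes, around medians of -0.24 at 72 h and -1.14 at 120 h.

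Each count by complex here and below is to be set beside 52.7% of all tested genes lower at 120 h and 22.3% at 72 h. Complex I, the NADH dehydrogenase, had 36 nuclear subunits tested, of which 33 fell and 3 were not called in the 120 h group (median -1.18). The N module, which takes electrons from NADH, had a median of -1.06, the Q module, which passes them to ubiquinone, -1.23, the proximal membrane arm -0.92 and the distal membrane arm -1.24. The NADH-binding flavoprotein subunit Ndufv1 had 46.1 and 31.4 RPKM in 120 h cells, against 130 and 127 RPKM in untreated cells (log2 fold change -1.73 ± 0.17 SE, adjusted p = 2.46e-05). Ndufa12, an accessory subunit of the N module, had 8.82 and 5.05 RPKM in 120 h cells, against 28.6 and 30.7 RPKM in untreated cells, the lowest change within complex I (-1.99 ± 0.21, adjusted p = 3.95e-05). For both genes the groups were well apart. Ndufs7, which carries the iron-sulfur cluster next to ubiquinone, fell by 1.41 on the log2 scale, Ndufc1 of the proximal arm by 1.59, and Ndufab1, the mitochondrial acyl carrier protein, by 1.56.

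The 3 complex I subunits not called in 120 h cells were Ndufs4, Ndufb3 and Ndufa3, 1 from each of 3 modules. Ndufs4, an N module subunit whose loss causes Leigh syndrome, had 26.9 and 21.3 RPKM in 120 h cells, against 26.6 and 26.2 RPKM in untreated cells (-0.14, 95% interval -0.39 to 0.11, adjusted p = 0.271). Ndufb3, of the distal arm, had 54.3 and 38.7 RPKM, against 49.8 and 50.3 RPKM in untreated cells (-0.12, interval -0.46 to 0.21, adjusted p = 0.455). Ndufa3, of the proximal arm, had 97.5 and 79.4 RPKM, against 93.3 and 113 RPKM in untreated cells (-0.22, interval -0.55 to 0.11, adjusted p = 0.182). For all 3 genes the groups overlapped, and the intervals leave out a fall of the size of the member median. With median-of-ratios scaling Ndufs4 was called higher (0.29, adjusted p = 0.0361).

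The 8 complex I assembly factors, which build the complex and are not part of it, fell throughout in 120 h cells (8 of 8, median -1.04). Ndufaf2, an assembly chaperone and paralog of Ndufa12, averaged 2.78 ± 1.13 RPKM in 120 h cells and 12.6 ± 0.552 RPKM in untreated cells (SD, n = 2 each; -1.88 ± 0.19, adjusted p = 3.40e-05). Ndufaf6, needed for early assembly, had 1.50 and 1.22 RPKM, against 6.29 and 6.91 RPKM in untreated cells (-1.69 ± 0.12). The smallest fall was that of Ndufaf7, a protein methyltransferase, at -0.22 (adjusted p = 0.0215), and with median-of-ratios scaling it was called higher (0.18, adjusted p = 0.0416).

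All 4 subunits of complex II, succinate dehydrogenase, fell in 120 h cells, by a narrow range of amounts. The flavoprotein Sdha fell by 1.08 on the log2 scale (69.1 and 55.4 RPKM, against 132 and 132 RPKM in untreated cells). The iron-sulfur subunit Sdhb fell by 0.87 (56.6 and 49.0 RPKM, against 96.0 and 98.2 RPKM in untreated cells). The membrane anchors Sdhc and Sdhd fell by 0.85 and 0.96. Sdhb alone of the 4 was also called lower in the 72 h group, at 70.8 and 61.6 RPKM (-0.55, adjusted p = 0.00340), while Sdhd stood at 162 and 133 RPKM there, around its 145 and 138 RPKM in untreated cells. The difference between the Sdhb and Sdhd changes was not tested.

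Complex III, the cytochrome bc1 complex, had all 8 nuclear members lower in 120 h cells (median -1.20). Uqcrq, a small subunit, fell by 1.78 and Uqcr11 by 1.61, whereas Uqcrb, which helps bind ubiquinone, fell by 0.45 (104 and 73.6 RPKM, against 115 and 126 RPKM in untreated cells, adjusted p = 0.0304). The hinge protein Uqcrh, which docks cytochrome c, was the complex III member called lower already in the 72 h group, at 194 and 152 RPKM, against 299 and 318 RPKM in untreated cells (-0.84 ± 0.15, adjusted p = 0.00238). It was lower still in 120 h cells, at 131 and 106 RPKM (-1.38).

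Complex V, the ATP synthase, was the most abundant of the 5 and fell throughout in 120 h cells (17 of 17 listed genes, the Atp5o read-through gene among them, median -1.16). The catalytic subunit Atp5b had 330 and 213 RPKM in 120 h cells, against 908 and 887 RPKM in untreated cells (-1.75 ± 0.21, adjusted p = 7.51e-05). It remained the highest tested member in both groups. Atp5o, the stalk protein that holds the catalytic head in place, fell by 1.77, and its read-through gene by 1.70. The 3 genes Atp5g1, Atp5g2 and Atp5g3 encode the same mature subunit c of the rotor and differ in their import signals, and they fell by 1.64, 1.37 and 1.30. Atp5g1 had the lowest RPKM of them, at 12.9 and 7.02 RPKM in 120 h cells, against 31.4 and 32.4 RPKM in untreated cells. The transcript that stood for it has 4715 bases, against 731 for Atp5g2 and 723 for Atp5g3. RPKM is per length, so this order depends on the transcript chosen. No complex V gene was called in the 72 h group, where the median was -0.22. Atp5s, a coupling factor named with these genes, fell by 1.36 in 120 h cells.

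**Figure D3:**
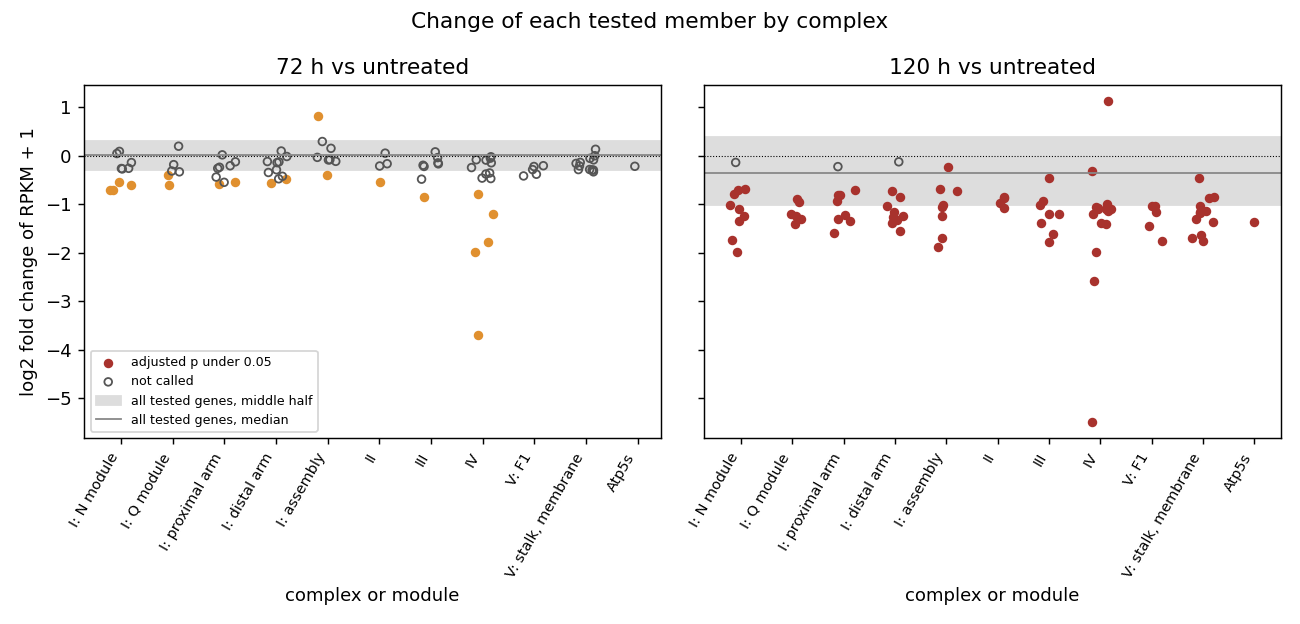
Each point is the log2 fold change of 1 tested member against untreated cells, for the 72 h group (left) and the 120 h group (right), filled where the adjusted p was under 0.05; the grey line and band are the median and quartiles of all 13004 tested genes. At 120 h the points of every complex lie mostly below the grey line, and the widest spread is that of complex IV, from -5.50 for Cox6a2 to 1.13 for Ndufa4l2.

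Complex IV, cytochrome c oxidase, held the largest changes in 120 h cells. There 14 of its 15 tested members fell and 1 rose (median -1.10), and in the 72 h group 5 of 15 fell. The core of the nuclear subunits moved by similar amounts in 120 h cells, among them Cox4i1, the largest nuclear subunit, at -0.99, Cox6b1 at -1.09, Cox8a at -1.10, Cox7b at -1.40 and Cox6a1 at -1.39. The isoforms and paralogs departed from it in both directions.

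Cox6a2 (chr7:128205435-128206387) is the isoform of subunit 6A known from heart and skeletal muscle. It had 67.7 and 82.5 RPKM in untreated cells, 63.9 and 64.7 in the 24 h group, 42.1 and 53.1 in the 40 h group, 5.74 and 4.04 in the 72 h group, and 0.858 and 0.509 RPKM in the 120 h group. The 40 h, 72 h and 120 h libraries each lay under every library of the shorter withdrawals. The log2 fold change was -0.65 in the 40 h group, which was not called (adjusted p = 0.0908), -3.70 ± 0.18 in the 72 h group (adjusted p = 2.09e-06) and -5.50 ± 0.18 in the 120 h group (adjusted p = 6.14e-08). With E2 back for 48 h the 72 h group lay between the ends, 1.80 above the 120 h group on the log2 scale (adjusted p = 3.49e-05). The common isoform Cox6a1 had 445 and 462 RPKM in untreated cells, 365 and 297 RPKM in 72 h cells and 215 and 138 RPKM in 120 h cells. The RPKM of Cox6a2 came to 15.2 and 17.9% of that of Cox6a1 in the untreated, 1.57 and 1.36% in the 72 h and 0.399 and 0.368% in the 120 h libraries. This ratio is taken within a library and does not depend on the scaling.

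Cox7a1 (chr7:30184144-30186078), the heart and skeletal muscle isoform of subunit 7A, moved with a different time course. It had 6.57 and 7.45 RPKM in untreated cells, 5.41 and 6.60 in the 24 h group, 6.41 and 6.36 in the 40 h group, 1.19 and 1.45 in the 72 h group, and 0.934 and 1.14 RPKM in the 120 h group. The 72 h and 120 h libraries stood apart from the other 6 and next to each other. The change was -1.79 ± 0.11 at 72 h (adjusted p = 9.68e-06) and -1.98 ± 0.11 at 120 h (adjusted p = 1.32e-06), and the 72 h group was not called against the 120 h group (0.19, interval -0.08 to 0.45). The common isoform Cox7a2 had 161 and 125 RPKM in 72 h cells, overlapping its 143 and 151 RPKM in untreated cells (-0.05, adjusted p = 0.857), and fell in 120 h cells to 80.2 and 54.1 RPKM (-1.14, adjusted p = 0.000586).

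Cox7a2l (chr17:83501918-83517330) encodes SCAF1, a relative of subunit 7A that joins complexes III and IV into a supercomplex, and C57BL/6 mice are known to carry a shortened form of it. It had 171 and 169 RPKM in untreated cells, 168 and 161 in the 24 h group, 155 and 149 in the 40 h group, 105 and 92.0 in the 72 h group, and 154 and 123 RPKM in the 120 h group. The 72 h libraries were the lowest of the 10. The 72 h group was lower than untreated cells (-0.78 ± 0.12, adjusted p = 0.00124) and lower than the 120 h group (-0.48, adjusted p = 0.00642). The call against 120 h was lost without 72 h replicate 2, the lowest library (-0.38, adjusted p = 0.0527), and with only the 2 groups in the fit (-0.48, adjusted p = 0.0643). The fall in the 120 h group was the smallest of the called complex IV members (-0.30, adjusted p = 0.0442). That call was lost in 15 of 19 alternatives, 9 of the 10 with a library left out among them (adjusted p from 0.00135 to 0.332 over the 19), and the change turned to 0.14 with median-of-ratios scaling. Within a library, Cox7a2l stood at 1.20 and 1.12 times the RPKM of Cox7a2 in untreated cells, 0.657 and 0.734 times at 72 h and 1.91 and 2.28 times at 120 h.

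Ndufa4 (chr6:11900292-11907497) was named as a complex I subunit and is now placed in complex IV. It had 563 and 561 RPKM in untreated cells, 498 and 506 in the 24 h group, 462 and 408 in the 40 h group, 266 and 221 in the 72 h group, and 112 and 77.9 RPKM in the 120 h group. No groups overlapped, and each longer withdrawal lay lower. The change of -0.37 at 40 h was not called (adjusted p = 0.320), and it was -1.21 at 72 h (adjusted p = 0.000944) and -2.58 ± 0.18 at 120 h (adjusted p = 3.34e-06). Against Cox4i1 of the same library, the RPKM of Ndufa4 was 112 and 109% in untreated cells, 65.2 and 67.0% at 72 h and 36.2 and 37.1% at 120 h.

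Ndufa4l2 (chr10:127514967-127517154), a paralog of Ndufa4 known as a target of hypoxia-inducible factor, was the member that rose in 120 h cells on RPKM as deposited. It had 13.8 and 16.9 RPKM in untreated cells, 14.5 and 12.2 in the 24 h group, 6.86 and 10.1 in the 40 h group, 2.30 and 4.07 in the 72 h group, and 27.9 and 43.0 RPKM in the 120 h group. The 72 h libraries were the lowest of the 10 and the 120 h libraries the highest. The change was -1.99 ± 0.27 at 72 h (adjusted p = 0.000641) and 1.13 ± 0.27 at 120 h (adjusted p = 0.00455), and 72 h against 120 h gave -3.12 (adjusted p = 1.67e-05). The ratio of Ndufa4l2 to Ndufa4 RPKM was 2.45 and 3.01% in untreated cells, 0.862 and 1.84% at 72 h and 24.9 and 55.2% at 120 h.

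A further paralog of Ndufa4, AA467197 (Nmes1 among its RefSeq synonyms), lies outside the members and was looked up after the Ndufa4 values were seen. It had 4.22 and 5.12 RPKM in the 120 h libraries, against 0.014 to 0.115 RPKM in the other 8. These levels are a description with no test, since it reached 1 RPKM in the 120 h group alone. Its human counterpart is known to take the place of NDUFA4 in complex IV. Its level in 120 h cells was 3.76 and 6.57% of that of Ndufa4, so Ndufa4 remained the most abundant of the 3 in every library.

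**Figure D4:**
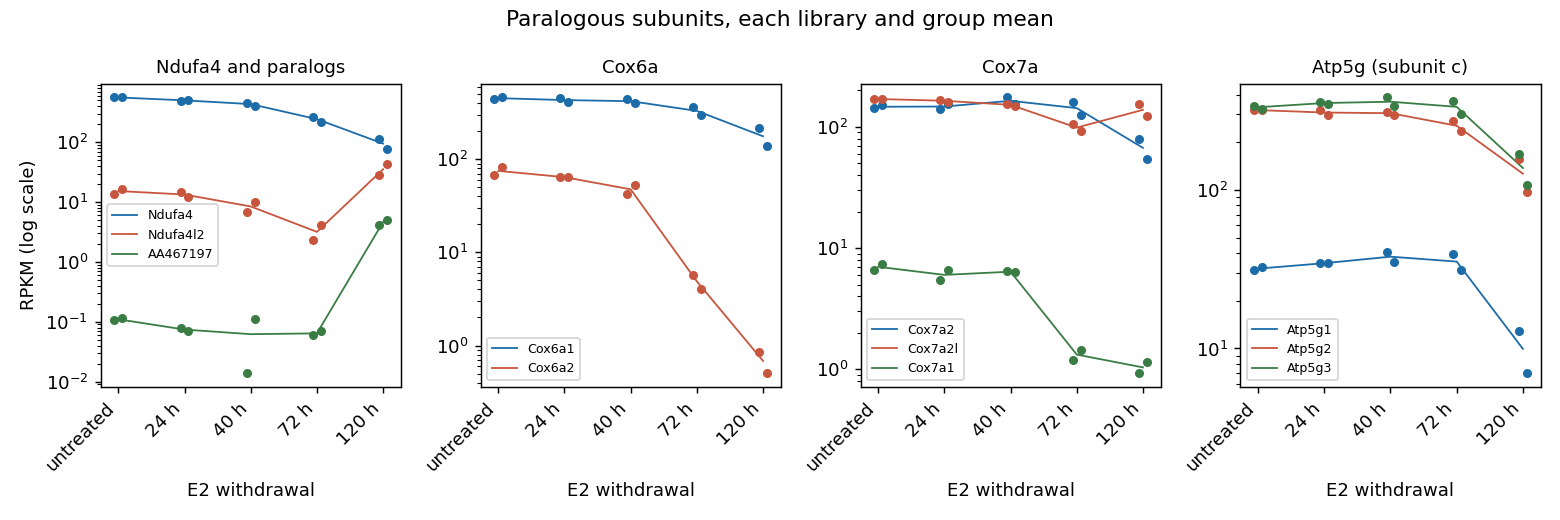
RPKM on a log axis is shown for each library (points) and as group means (lines) along the withdrawal series, for Ndufa4 and its paralogs, the Cox6a, Cox7a and Atp5g families. Ndufa4 and Ndufa4l2 run in opposite directions between 72 h and 120 h, Cox6a2 and Cox7a1 drop far more than Cox6a1 and Cox7a2 by 72 h, and the 3 Atp5g lines are each lowest at 120 h.

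In the 24 h and 40 h groups the members were not called changed. At 24 h no member was called and none had an unadjusted p under 0.05 (member median -0.02), where over all genes 0 were called by limma or by voom on recovered reads and 365 (2.81%) had an unadjusted p under 0.05. At 40 h no member was called, while 3.36% of all genes were lower and 0.93% higher. The 5 members with an unadjusted p under 0.05 at 40 h, of 18.7% of all genes, were Cox6a2, Ndufa4l2 and Ndufv3 on the lower side and the assembly factors Ndufaf4 and Ndufaf8 on the higher side. The count at 40 h depended on the fit: with the 120 h libraries left out, 3 of 89 members were called lower and 2 higher, where 9.12% of all genes were lower and 4.70% higher.

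In the 72 h group, where E2 had been back for 48 h, 18 of 89 members were lower and 1 higher (22.3% of all genes were lower and 21.6% higher). In this fit 20.2% of members were thus called lower, near the share of all genes, and 1.12% higher. The member median was -0.24 (quartiles -0.42 and -0.09), the median of all genes 0.02, and 78 of the 89 members lay below the all-gene median. How the members stood to all genes depended on the fit. Lower members numbered 11 (12.4%) without untreated replicate 2 or without 72 h replicate 2, where 14.5% and 16.2% of all genes were lower. They numbered 43 (48.3%) with either 120 h library or the whole 120 h group left out, where 30.2% of all genes were lower. By complex, 10 of 36 complex I subunits, 1 of 4 in complex II, 1 of 8 in complex III, 5 of 15 in complex IV and none of 17 in complex V were lower, together with the assembly factor Ndufaf3.

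The 72 h mean lay between the untreated and the 120 h mean for 75 of 89 members. The share of all tested genes with this order was not worked out. Against the 120 h group, 77 members were higher in the 72 h group and 2 lower, where 51% of all genes were higher and 26.4% lower (member median 0.96, all genes 0.32). With median-of-ratios scaling 52 members were higher, where 33.5% of all genes were. Of the 18 members lower at 72 h, 11 were lower still at 120 h, among them Sdhb, Ndufv1, Uqcrh, Ndufa4 and Cox6a2. With median-of-ratios scaling 2 of the 11 turned sign between 72 h and 120 h and were no longer called, Sdhb (-0.11, adjusted p = 0.359) and Ndufaf3 (-0.13, adjusted p = 0.246). Another 5, Ndufa6, Ndufv3, Ndufb11, Ndufa13 and Cox7a1, were not called between 72 h and 120 h. Ndufv3, an accessory subunit next to the NADH site, had 50.3 and 52.5 RPKM in untreated cells, 32.0 and 30.5 RPKM at 72 h and 32.8 and 29.5 RPKM at 120 h. Ndufa6, an accessory subunit of the matrix arm, had 117 and 127 RPKM in untreated cells, 78.9 and 70.4 RPKM at 72 h and 76.4 and 65.0 RPKM at 120 h. For both genes the 72 h and 120 h libraries lay side by side and under all others, and with median-of-ratios scaling the 72 h group was the lower (Ndufv3 -0.42, adjusted p = 0.00245; Ndufa6 -0.36, adjusted p = 0.0246). Against the 40 h group, 12 members were lower in the 72 h group and none higher (member median -0.29; 13.8% of all genes were lower and 13.9% higher), and 87 lay below the all-gene median of 0.02. That count was 3 (3.37% of members) when 40 h replicate 1 or 72 h replicate 2 was left out, where 8.44% and 8.54% of all genes were lower, and 7 (7.87%) when 40 h replicate 2 was, where 7.88% were. It was 45 (50.6%) when either 120 h library was left out, where 23.6% of all genes were lower.

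Ndufaf4 (chr4:24898083-24905001), an assembly factor that acts on the early Q module intermediate, was the member that rose at 72 h. It had 4.38 and 4.54 RPKM in untreated cells, 4.66 and 5.46 in the 24 h group, 6.47 and 6.53 in the 40 h group, 8.58 and 8.63 in the 72 h group, and 1.70 and 0.990 RPKM in the 120 h group. The groups did not overlap, and every longer withdrawal up to 72 h lay higher. The 40 h change of 0.46 was not called (adjusted p = 0.121), the 72 h change was 0.81 ± 0.14 (adjusted p = 0.00204) and the 120 h change -1.24 ± 0.14 (adjusted p = 5.42e-05). Together with Cox7a2l and Ndufa4l2, both low, it made up the 3 members whose 72 h group was called outside both untreated cells and the 120 h group.

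Summed over the members, counting Atp5o once, nuclear oxidative phosphorylation genes held 2.75 ± 0.00977% of the RPKM of nuclear coding genes in untreated cells, 2.71 ± 0.00937% in the 24 h, 2.76 ± 0.150% in the 40 h, 2.45 ± 0.187% in the 72 h and 1.35 ± 0.219% in the 120 h group (SD, n = 2 each). Complex V held 0.439% at 120 h, against 0.956% in untreated cells, complex IV 0.371% against 0.787%, complex I subunits 0.344% against 0.635%, complex III 0.129% against 0.258%, and complex II 0.0535% against 0.0947%. The order of the complexes by summed level was the same at both ends. With the transcript of highest mean RPKM taken for each gene, 24 of the group shares moved by at least the replicate SD. That count takes in the shares of the mitochondrially encoded and citric acid cycle genes.

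The subunits encoded by mitochondrial DNA, which are no members, followed another course. Of 13 such genes 11 were tested. Among these, mt-Co3 and mt-Atp6 did not reach 1 RPKM in both untreated libraries, so no count of calls is given for this list. At 72 h mt-Cytb, the cytochrome of complex III (1.05, adjusted p = 0.00351) and mt-Nd4 of complex I (1.10, adjusted p = 0.00268) were higher. The complex I gene mt-Nd3 had 401 and 375 RPKM at 72 h and 242 and 137 RPKM at 120 h, against 332 and 248 RPKM in untreated cells. mt-Co1, the catalytic subunit of complex IV, was not called at 72 h or at 120 h. The RPKM of 83 nuclear subunits divided by that of the mitochondrial ones was 1.72 and 1.90 in untreated cells, 1.28 and 1.59 at 24 h, 1.32 and 1.39 at 40 h, 0.963 and 0.728 at 72 h and 0.733 and 0.671 at 120 h. The 72 h and 120 h libraries lay under the other 6 and overlapped each other. This is a ratio within a library, so the scaling does not enter. mt-Co2, mt-Co3, mt-Atp6 and mt-Atp8 were listed at 0.322 to 1.38 RPKM in all libraries, far under the other mitochondrial genes, and without the use of strand being stated the mitochondrial genes, which adjoin or overlap each other, are uncertain as single genes.

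**Figure D5:**
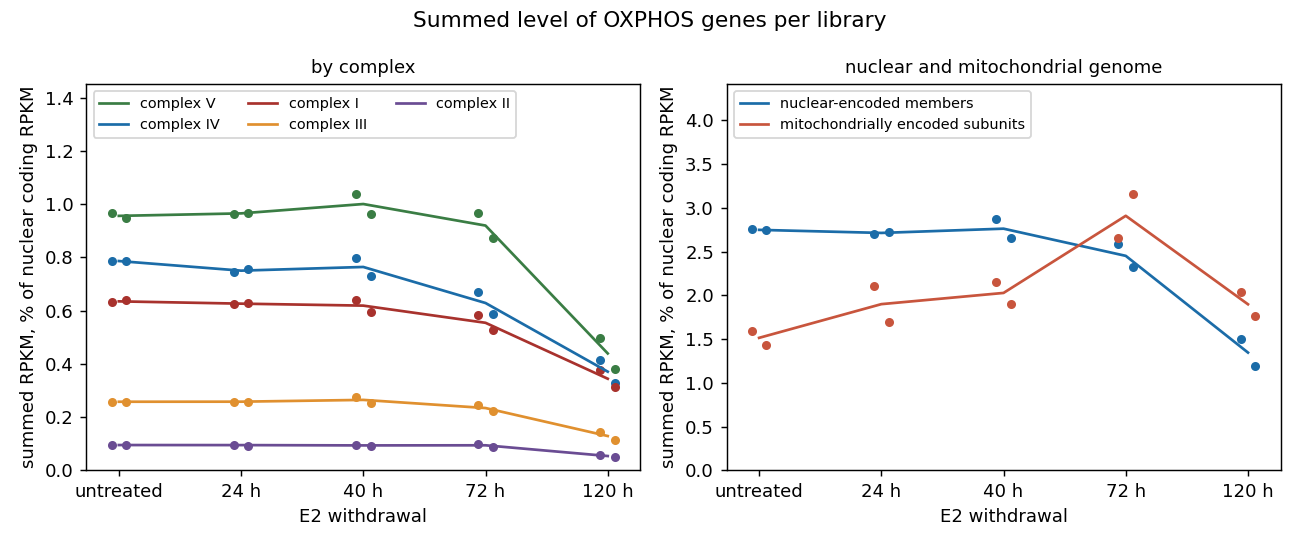
The summed RPKM as a percent of the RPKM of nuclear coding genes is drawn per library (points) and as group means (lines), by complex on the left and for nuclear members and mitochondrially encoded subunits on the right. Nuclear members fall to 1.35% at 120 h while the mitochondrially encoded sum peaks at 2.91% at 72 h.

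Genes that supply the chain with electrons or build it were read beside the members. Over all tested genes 52.7% were lower and 27.5% higher at 120 h, and 22.3% were lower and 21.6% higher at 72 h. The counts of the lists here and below are descriptions to be set beside these shares. All 18 genes of the citric acid cycle list fell in 120 h cells (median -1.20) and 4 fell at 72 h. Idh2, the mitochondrial NADP-dependent isocitrate dehydrogenase, had 47.4 and 26.9 RPKM at 120 h, against 333 and 328 RPKM in untreated cells (-3.17, adjusted p = 3.30e-06), a larger fall than that of any member but Cox6a2. Suclg2, the GTP-forming subunit of succinyl-CoA synthetase, fell by 2.59 and Pcx, the pyruvate carboxylase that refills the cycle, by 2.55. All 15 genes of electron carriers and coenzyme Q synthesis fell at 120 h (median -1.21), the kinase-like Coq8a by 2.54. At 72 h 3 of them rose and 2 fell, Coq8a by 2.10 (adjusted p = 3.87e-06).

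Of the 21 assembly factors of complex IV, 19 fell at 120 h (median -0.76), with Coa3 at -1.78 and the RNA-binding Lrpprc at -1.43. At 72 h 6 rose and 2 fell, where 21.6% of all genes were higher and 22.3% lower. Lrpprc was higher there (0.43, adjusted p = 0.0130). All 6 assembly factors of complex III fell at 120 h (median -1.03), Bcs1l, which inserts the Rieske protein, by 2.03. Of 18 regulators of mitochondrial biogenesis 16 were tested. Among these, Esrrg did not reach 1 RPKM in both untreated libraries, so no count of calls is given for that list. The mitochondrial DNA helicase Twnk fell by 2.06 at 120 h. The coactivator Pprc1 fell by 1.50 at 120 h and rose at 72 h (0.55, adjusted p = 0.00692). Yy1 was not called at 120 h (-0.11, adjusted p = 0.173), and with median-of-ratios scaling it was called higher (0.32, adjusted p = 0.00305). All 8 tested nucleotide carriers, channels and inhibitors fell at 120 h (median -1.08), among them the ATP synthase inhibitor Atpif1 (-1.75) and the outer membrane channel Vdac1 (-1.34).

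Many members have processed pseudogenes, so the share of 50-base windows of each member's transcript that also occurs in other annotated transcripts was set beside the calls. In the 120 h group 41 of the 44 members with under 1% of shared windows fell (median -1.09), 26 of 27 with 1 to 20% (median -1.16) and all 18 with 20% or more (median -1.20). Of all tested genes 52.7% were lower there. Members with much shared sequence, such as Atp5g2 (87.4%), Atp5l (84.9%) and Cox7c (53.0%), are uncertain as single genes, and the median among members with little of it was of like size.

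In the 40 h, 72 h and 120 h groups the members tended to move together between the 2 libraries. Of the 89 members, replicate 2 lay under replicate 1 for 37 in the untreated and 39 in the 24 h group, 83 in the 40 h group (median difference -0.16 on the log2 scale), 85 in the 72 h group (-0.24) and 87 in the 120 h group (-0.48). Over all tested genes 44.4% were lower in replicate 2 of the untreated group, 39.6% of the 24 h, 44.9% of the 40 h and 45.7% of the 72 h group. In the 120 h group 56.0% were (median -0.05). Without 120 h replicate 1 the member median at 120 h was the lowest of the leave-one-out values, -1.38, and without 120 h replicate 2 the highest, -0.92.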

How the data were processed

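The authors deposited RPKM per Ensembl transcript for each library, per the file headers. Per the submitters' processing notes STAR was the aligner and GRCm38 the build; for its version, the counting program, the annotation and the use of strand, the sources used here give nothing. Of 79535 transcripts, 77720 matched GENCODE M21, and 1 transcript stood for each gene (coding, then APPRIS principal, CCDS and longest). RPKM times length came out as whole reads (within 0.02 reads plus the rounding of RPKM) in 100% of the 8554 to 10700 low values checked per library, where 13.5 to 14.4% would by chance, at the library denominators that served best, 173621000 to 204388000 reads. limma 3.58.1 in R 4.3.3 was fitted to log2(RPKM + 1), for the 13004 genes with at least 1 RPKM in at least 2 libraries, with group as the only term, 2-sided tests and Benjamini-Hochberg adjustment over all of them; fold changes on this scale understate the change of low genes. The steps were tested on simulated data. Alternatives covered the pseudocount (0.1), the filter, 2 scalings, the transcript, the libraries in the fit, a replicate block, array weights, voom on recovered reads and each library left out. The members and gene lists were chosen with earlier results of these data known. By rule the text names the called members with the largest changes overall and per complex, the most abundant uncalled ones, all of complex II, the paralog sets, members called in opposite directions, members whose 72 h group lay outside both ends, and up to 4 genes of each other list. Others named fall outside that rule and were chosen after their values were seen. Promoter sequences are from RefSeq (GRCm38.p6), and the site letters searched were shortened after a search with longer ones. The values of 1 member are not reported here singly.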

Additional observations from a re-analysis of the deposited data

Results flagged for a closer look

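For 2 members the 72 h and 120 h groups were both called against untreated cells with opposite signs. The difference between the groups was itself tested in the same limma fit. Other members, such as Ndufa5 and Atp5g1, had group means on opposite sides of untreated cells without both calls. Ndufaf4 was higher in the 72 h group by 2.05 on the log2 scale than in the 120 h group (adjusted p = 4.61e-06). Ndufa4l2 in the 72 h group differed from the 120 h group by -3.12 (adjusted p = 1.67e-05). Both libraries of each group showed these directions for both genes. The cause was not tested.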

How the results depend on the processing

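Each group had 2 libraries, and where 1 was left out the remaining library was assumed to vary like the other groups. The main fit also took 1 spread per gene for all groups. Over tested genes the median absolute log2 difference between the 2 libraries was 0.248 at 120 h, against 0.060 in untreated cells. The p-values of the 120 h group thus rest partly on groups that varied less. With only the 2 groups compared, without the 120 h group, and with array weights, the members called lower were 4, 3 and 6 at 40 h (2 higher in each), 34, 43 and 41 at 72 h (2 higher in each), and 22, 45 and 36 for 72 h against 40 h (1 higher in each). Of all genes 9.67, 9.12 and 13.9% were lower at 40 h in these fits, 26.6, 30.2 and 29.2% at 72 h and 17.6, 23.6 and 19.5% for 72 h against 40 h, beside 4.49, 3.37 and 6.74%, 38.2, 48.3 and 46.1%, and 24.7, 50.6 and 40.4% of members. With only the 2 groups compared, 1 member was lower in the 72 h than in the 120 h group. Median-of-ratios scaling gave 3 members higher at 120 h (3.37%, against 39.4% of all genes) and a 120 h median of -0.71. For 72 h against 120 h it gave 52 members higher (58.4%, against 33.5% of all genes), 6 lower (6.74%, against 38.4%) and a median of 0.52. That scaling gave 5 members with the 72 h group outside both ends. It turned the sign of 5 members at 120 h, Ndufs4 (0.29), Ndufaf7 (0.18), Cox7a2l (0.14) and, called under neither, Ndufb3 (0.31) and Ndufa3 (0.22), and of the other genes Coa5 (0.27) and Yy1 (0.32). For 72 h against 120 h it turned 13 members, of which 7 were called under either scaling, Atp5f1 (-0.034), Ndufa3 (-0.42), Ndufa6 (-0.36), Ndufaf3 (-0.13), Ndufaf7 (-0.26), Ndufv3 (-0.42) and Sdhb (-0.11), and Yy1 (-0.22). The cause of these moves was not tested.

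With each library left out in turn, the members called lower and higher ranged from 0 to 0 and 0 to 0 at 24 h, 0 to 3 and 0 to 2 at 40 h, 11 to 43 and 1 to 2 at 72 h, 81 to 88 and 1 to 1 at 120 h, 3 to 45 and 0 to 1 for 72 h against 40 h, and 1 to 2 and 67 to 81 for 72 h against 120 h. The medians ranged from -0.037 to -0.0052 at 24 h, -0.06 to 0.09 at 40 h, -0.37 to -0.13 at 72 h, -1.38 to -0.92 at 120 h, -0.39 to -0.17 for 72 h against 40 h and 0.70 to 1.16 for 72 h against 120 h, and the members with the 72 h group outside both ends from 2 to 4. Over the single genes and shares, 12616 values kept direction and side of the threshold or moved by less than the replicate spread, 443 passed it newly, 283 lost it, 13 reversed and 24 moved. All 24 that moved were shares, under the choice of the transcript with the highest mean RPKM.

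The labels name no shared batch behind the replicate numbers of the titles. Deviations of same-numbered libraries correlated positively between all groups, at 0.034 to 0.639, with 8 of 10 over 0.1 and the highest between 72 h and 120 h, so shared handling of some groups was neither shown nor tested, and the block is given as an alternative. With the replicate block 27 members (30.3%) were lower at 72 h, 85 (95.5%) at 120 h and 17 (19.1%) for 72 h against 40 h, where 24.6%, 54.0% and 16.3% of all genes were.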
